A study of Homo sapiens with 8 samples.

Results

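Transcript levels of 8 genes of the basic helix-loop-helix (bHLH) family were followed in 2 cell lines of human T-cell acute lymphoblastic leukaemia (T-ALL) after knockdown of LDB1. The genes were TAL1 and LYL1, the E protein genes TCF3, TCF12 and TCF4, and the ID genes ID1, ID2 and ID3. They were chosen by name, from their Ensembl identifiers, because their products are the bHLH partners of the LDB1 complex and the inhibitors of those partners. Earlier results of these data were known when they were chosen. All 8 were found among the 64252 genes of each count table, and all 8 passed the filter on low counts in both lines.

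E proteins are widely expressed bHLH factors that bind DNA as dimers at the E-box, a short motif with the letters CANNTG. TAL1 and LYL1 are class II bHLH factors that are silent in maturing T cells, are switched on in a large share of T-ALL, and bind DNA only when paired with an E protein. A TAL1 or LYL1 dimer can be joined through an LMO protein to LDB1, which dimerises and thereby holds enhancers and promoters together, often with a GATA factor in the same complex. ID proteins have the dimerisation domain and lack the basic region, so that an E protein held by an ID protein does not bind DNA. E proteins drive the early T-cell programme, and ID3 and ID1 are well known as genes that signalling through the T-cell receptor or through BMP receptors raises.

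The 8 libraries formed 4 groups of 2. 6T-CEM is a T-ALL line derived from CCRF-CEM, in which a deletion places TAL1 under the STIL promoter. J.gamma1 is a Jurkat-derived clone that lacks phospholipase C gamma 1, and Jurkat cells carry a small insertion that creates an enhancer upstream of TAL1. Each line was transduced with a lentiviral control shRNA (6T-CEM sh-NC and J.gamma1 sh-NC) or with an shRNA against LDB1 (6T-CEM sh-LDB1 and J.gamma1 sh-LDB1) and selected with puromycin. The shRNA against LDB1 that the sequenced cells carried was not given in the sources used here, so an effect of that 1 shRNA and of the loss of LDB1 cannot be told apart. Nothing in the labels says that the 2 libraries of a group came from separate cultures, and p-values then measure only the spread between these libraries, which may be technical.

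Total counts lay between 26160492 and 30604977 a library, and 8 of 8 T-lineage markers had a mean of at least 10 counts in every group. CD2, a defining marker of T cells, was near that floor in 6T-CEM, with a mean of 11 counts over its 4 libraries. The B-cell gene MS4A1 was at or near 0 in all libraries, and CD79A accounted for most of the summed B-lineage level of 34.0 to 79.3 counts per 1e6 counts (CPM). The summed level of the T-lineage markers moved with the knockdown, from 1462 to 1515 CPM in the sh-NC libraries up to 1885 to 1919 CPM in the sh-LDB1 libraries of 6T-CEM, and from 1886 to 1933 up to 2325 to 2386 CPM in J.gamma1. Single markers went both ways: 4 of the 8 rose and CD5 fell in 6T-CEM, and 4 rose and CD3D and LCK fell in J.gamma1. The part of these shifts in the results was not tested. LDB1 itself stood at 106.9 and 111.2 CPM in 6T-CEM sh-NC against 37.0 and 35.0 in 6T-CEM sh-LDB1, and at 60.2 and 58.8 CPM in J.gamma1 sh-NC against 33.2 and 30.8 in J.gamma1 sh-LDB1. Thus 33.1% of the control level of LDB1 remained in 6T-CEM and 54.0% in J.gamma1, from a control level that was higher in 6T-CEM.

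The genes lie on separate chromosomes or far apart. On GRCh38, the build of the hg38 alignment, TAL1 spans chr1:47216290-47232225 and ID3 chr1:23557926-23559501, LYL1 spans chr19:13099033-13103161 and TCF3 chr19:1609291-1652615, all on the minus strand. TCF4 spans chr18:55222185-55664787 on the minus strand. TCF12 spans chr15:56918623-57299281, ID1 chr20:31605283-31606515 and ID2 chr2:8678845-8684461, on the plus strand. The promoter windows of the genes that changed most are printed because the bHLH and GATA partners of LDB1 bind the E-box and the letters GATA. Each window runs from 250 bases before to 50 bases after a RefSeq transcript start on GRCh38.p14, 5′ to 3′ in the direction of the gene. Capitals mark matches to CANNTG and to GATA on either strand (TATC when read from the other strand), and no pair of these matches overlapped. For TAL1 the window of 1 of 2 listed starts is shown, and the other window holds neither motif.

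LYL1, chr19:13102809-13103108, minus strand: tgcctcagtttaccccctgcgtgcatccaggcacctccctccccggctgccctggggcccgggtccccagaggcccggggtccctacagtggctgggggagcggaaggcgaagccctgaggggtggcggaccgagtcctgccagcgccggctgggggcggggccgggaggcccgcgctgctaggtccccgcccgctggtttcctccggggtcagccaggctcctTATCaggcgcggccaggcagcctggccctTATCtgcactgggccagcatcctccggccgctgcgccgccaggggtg
TAL1, chr1:47232286-47232585, minus strand: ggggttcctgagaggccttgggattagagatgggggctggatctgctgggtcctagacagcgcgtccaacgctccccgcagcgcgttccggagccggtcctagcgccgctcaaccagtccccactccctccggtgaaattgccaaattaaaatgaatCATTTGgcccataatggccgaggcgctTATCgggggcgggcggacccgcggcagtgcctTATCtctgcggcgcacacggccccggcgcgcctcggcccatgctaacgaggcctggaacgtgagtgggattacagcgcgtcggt
ID1, chr20:31605039-31605338, plus strand: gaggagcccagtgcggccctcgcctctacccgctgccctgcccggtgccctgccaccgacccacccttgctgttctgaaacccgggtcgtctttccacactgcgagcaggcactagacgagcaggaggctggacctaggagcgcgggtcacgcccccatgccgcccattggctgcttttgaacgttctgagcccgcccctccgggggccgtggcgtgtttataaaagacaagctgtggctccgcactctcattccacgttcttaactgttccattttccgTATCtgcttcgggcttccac
ID2, chr2:8681806-8682105, plus strand: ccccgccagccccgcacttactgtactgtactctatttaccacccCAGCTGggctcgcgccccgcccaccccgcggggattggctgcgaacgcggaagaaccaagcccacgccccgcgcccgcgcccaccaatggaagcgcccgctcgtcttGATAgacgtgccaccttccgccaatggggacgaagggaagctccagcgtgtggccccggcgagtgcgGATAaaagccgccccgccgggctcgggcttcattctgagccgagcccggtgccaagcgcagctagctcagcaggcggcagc
ID3, chr1:23559452-23559751, minus strand: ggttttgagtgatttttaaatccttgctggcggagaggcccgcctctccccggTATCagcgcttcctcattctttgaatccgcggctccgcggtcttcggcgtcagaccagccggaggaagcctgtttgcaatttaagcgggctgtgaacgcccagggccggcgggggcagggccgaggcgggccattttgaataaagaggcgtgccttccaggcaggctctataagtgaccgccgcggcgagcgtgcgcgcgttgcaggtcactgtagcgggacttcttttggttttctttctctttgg

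The LYL1 window holds 2 GATA matches, 1 that begins 26 bases before the start and 1 that begins at base 4 of the transcript, and no E-box. TAL1 has 2 GATA matches, 66 and 34 bases before the start, and an E-box 93 bases before it. ID2 has an E-box 205 bases before its start and 2 GATA matches, 98 and 31 bases before it. ID1 and ID3 have 1 GATA match each and no E-box. Of the 22 windows listed for the 8 genes, 11 hold an E-box and 13 hold GATA. Most of the E-box windows are of TCF4, the gene with the most listed starts, and 4 of the 8 genes have no E-box in any window. Among all 35116 windows of the table, 68.7% hold an E-box and 49.7% hold GATA, so both motifs are common in windows of this length. The composite of CTG and GATA that TAL1 and GATA factors share, with a gap of 7 or 8 bases on either strand, was found in 0 of the 22 windows and in 3.81% of all windows.

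Beginning with control cells, the class II genes differed most between the lines. TAL1 was at 44.4 and 49.6 CPM in 6T-CEM sh-NC and at 318.1 and 307.4 CPM in J.gamma1 sh-NC. LYL1 had the opposite order, with 45.5 and 44.7 CPM in 6T-CEM sh-NC and 8.92 and 7.36 CPM in J.gamma1 sh-NC. The lines did not overlap for either gene. The share of all tested genes without overlap was not computed, so non-overlap is given throughout as a description only. Expressed as 6T-CEM against J.gamma1, the log2 difference was -2.73 ± 0.06 (SE, n = 2 libraries a group, adjusted p = 7.64e-12, edgeR's quasi-likelihood test) for TAL1 and 2.47 ± 0.13 (adjusted p = 8.05e-09, same test) for LYL1. Per length, in TPM (counts per length, scaled to the same sum in each library), TAL1 reached 0.57 of the LYL1 level in 6T-CEM sh-NC and 21.2 times the LYL1 level in J.gamma1 sh-NC, and with the longest transcript as length the ratios were 0.32 and 11.98.

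For the partners and inhibitors the control cells were closer. TCF3, which encodes E12 and E47, was at 264.1 and 270.0 CPM in 6T-CEM sh-NC and at 255.7 and 264.7 CPM in J.gamma1 sh-NC, a log2 difference of 0.04 with a 95% confidence interval from -0.07 to 0.14. TCF12, which encodes HEB, was 0.43 log2 units lower in 6T-CEM, and TCF4, which encodes E2-2, was 1.40 log2 units higher there. ID1 and ID2 were lower in 6T-CEM, by 0.41 and 1.32 log2 units, and ID3 was higher there by 0.34. In all, 7 of the 8 genes passed the test between control cells, where 65.7% of the 18552 genes tested did. Because each line has its own count table, the line, the table and any difference in sequencing run cannot be told apart in these values.

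**Figure D1:**
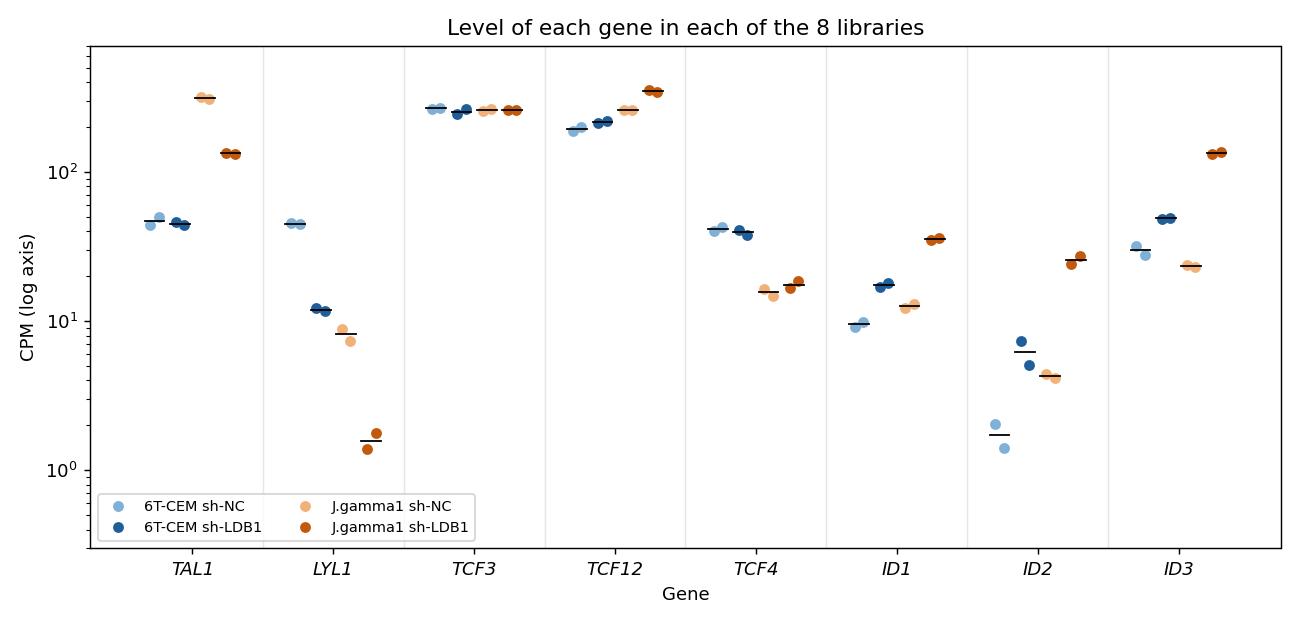
CPM of the 8 genes in the 8 libraries on a log axis, with 1 point a library, a black line at the mean of the 2 libraries, and a colour for each group. LYL1 drops and ID1, ID2 and ID3 climb in the sh-LDB1 libraries of both lines, TAL1 drops from 312.8 to 133.4 CPM in J.gamma1 and stays at 47.0 and 45.1 CPM in 6T-CEM, and TCF3 lies between 244.1 and 270.0 CPM in every library.

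LDB1 knockdown was followed by lower LYL1 in both lines. Counts of LYL1 were 1183 and 1205 in 6T-CEM sh-NC against 357 and 334 in 6T-CEM sh-LDB1, and 283 and 232 in J.gamma1 sh-NC against 39 and 52 in J.gamma1 sh-LDB1. As CPM these were 45.5 and 44.7 against 12.3 and 11.7, and 8.92 and 7.36 against 1.39 and 1.77. In neither line did the groups overlap, and LYL1 was left at 26.6% of control in 6T-CEM and at 19.6% in J.gamma1. The log2 fold change was -1.91 ± 0.10 in 6T-CEM (adjusted p = 3.98e-09, edgeR) and -2.35 ± 0.22 in J.gamma1 (adjusted p = 9.02e-06, edgeR). The difference between these changes, -0.44 with a 95% confidence interval from -0.90 to 0.01, did not pass the test (adjusted p = 0.15, edgeR). LYL1 is among the leading genes of a hematopoietic stem cell differentiation set that the study drew from these libraries, so its fall is not independent evidence. In these bulk libraries, fewer cells with a transcript and less of it per cell cannot be told apart.

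TAL1 fell in J.gamma1 and did not pass the test in 6T-CEM. In J.gamma1 it was at 318.1 and 307.4 CPM in sh-NC and at 134.0 and 132.8 CPM in sh-LDB1, without overlap, and 42.8% of the control level remained. The 6T-CEM libraries overlapped, with 44.4 and 49.6 CPM in sh-NC and 46.1 and 44.1 CPM in sh-LDB1. On the log2 scale the change was -1.22 ± 0.05 in J.gamma1 (adjusted p = 1.36e-08, edgeR) and -0.06 ± 0.08 in 6T-CEM (adjusted p = 0.66, edgeR), with a 95% confidence interval from -0.23 to 0.12 in the latter. TAL1 changed differently in the lines by -1.17 ± 0.08 log2 units (adjusted p = 2.42e-06, edgeR's test of the difference). LDB1 kept 54.0% of its control level in J.gamma1 and 33.1% in 6T-CEM. The LDB1 level left was 33.2 and 30.8 CPM in J.gamma1 sh-LDB1 and 37.0 and 35.0 CPM in 6T-CEM sh-LDB1. The part of the LDB1 level in the TAL1 difference was not tested. A long non-coding RNA on the opposite strand shares 845 exon bases with TAL1 and had at most 25 counts in any library.

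All 3 ID genes rose in both lines. ID1 was at 9.20 and 9.80 CPM in 6T-CEM sh-NC against 16.8 and 17.9 in sh-LDB1, and at 12.2 and 13.0 CPM in J.gamma1 sh-NC against 35.0 and 36.2 in sh-LDB1. ID2, per length the scarcest of the 3 in every group, had 2.04 and 1.41 CPM against 7.34 and 5.11 in 6T-CEM and 4.41 and 4.19 CPM against 24.3 and 27.1 in J.gamma1. ID3, per length the most abundant of the 3, had 31.9 and 27.8 CPM against 48.5 and 49.4 in 6T-CEM and 23.9 and 23.2 CPM against 132.0 and 136.4 in J.gamma1. No ID gene had overlapping groups in either line. TCF3 in 6T-CEM and TCF4 in J.gamma1 also had no overlap, and they did not pass the test there. Expressed as folds, ID1, ID2 and ID3 rose 1.83-fold, 3.61-fold and 1.65-fold in 6T-CEM and 2.83-fold, 6.00-fold and 5.73-fold in J.gamma1.

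The log2 fold changes of the ID genes in 6T-CEM were 0.87 ± 0.14 for ID1, 1.85 ± 0.27 for ID2 and 0.72 ± 0.09 for ID3, with adjusted p-values from 2.36e-05 to 2.07e-04 (edgeR). In J.gamma1 they were 1.50 ± 0.09, 2.58 ± 0.13 and 2.52 ± 0.06, with adjusted p-values from 6.89e-10 to 2.97e-07 (edgeR). ID2 in 6T-CEM rests on 53 and 38 counts in sh-NC and on 214 and 146 in sh-LDB1, and its standard error is the widest of the 8 genes in that line. The rise of ID3 was larger in J.gamma1 by 1.80 ± 0.10 log2 units (adjusted p = 5.76e-07, edgeR's test of the difference) and that of ID1 by 0.63 ± 0.15 (adjusted p = 0.0089, same test). ID2 had a difference of 0.73 with a 95% confidence interval from 0.06 to 1.40 before adjustment, and it did not pass the test after adjustment over all genes (adjusted p = 0.11, edgeR).

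Among the E protein genes, TCF12 rose and TCF3 and TCF4 did not pass the test. TCF12 was at 187.3 and 200.2 CPM in 6T-CEM sh-NC against 212.5 and 219.3 in sh-LDB1, and at 259.7 and 261.6 CPM in J.gamma1 sh-NC against 354.4 and 345.3 in sh-LDB1. It did not overlap in either line. The rise was 0.16 ± 0.06 log2 units in 6T-CEM (adjusted p = 0.046, edgeR) and 0.43 ± 0.04 in J.gamma1 (adjusted p = 1.46e-05, edgeR), larger in J.gamma1 by 0.27 ± 0.07 (adjusted p = 0.011, edgeR's test of the difference). The 6T-CEM call lies near the threshold and was lost when any 1 of the 4 libraries was left out (adjusted p from 0.052 to 0.27, edgeR).

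TCF3 stood at 264.1 and 270.0 CPM against 244.1 and 263.0 in 6T-CEM and at 255.7 and 264.7 CPM against 260.8 and 261.6 in J.gamma1. Its 95% confidence interval ran from -0.19 to 0.05 log2 units (6T-CEM) or from -0.09 to 0.11 (J.gamma1), so any change of TCF3 was small beside those of the ID genes. TCF4 stood at 40.0 and 42.5 CPM against 40.9 and 37.8 in 6T-CEM and at 16.4 and 14.8 CPM against 16.6 and 18.5 in J.gamma1. The intervals of TCF4 were wider, from -0.24 to 0.12 in the former line and from -0.08 to 0.43 in the latter.

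**Figure D2:**
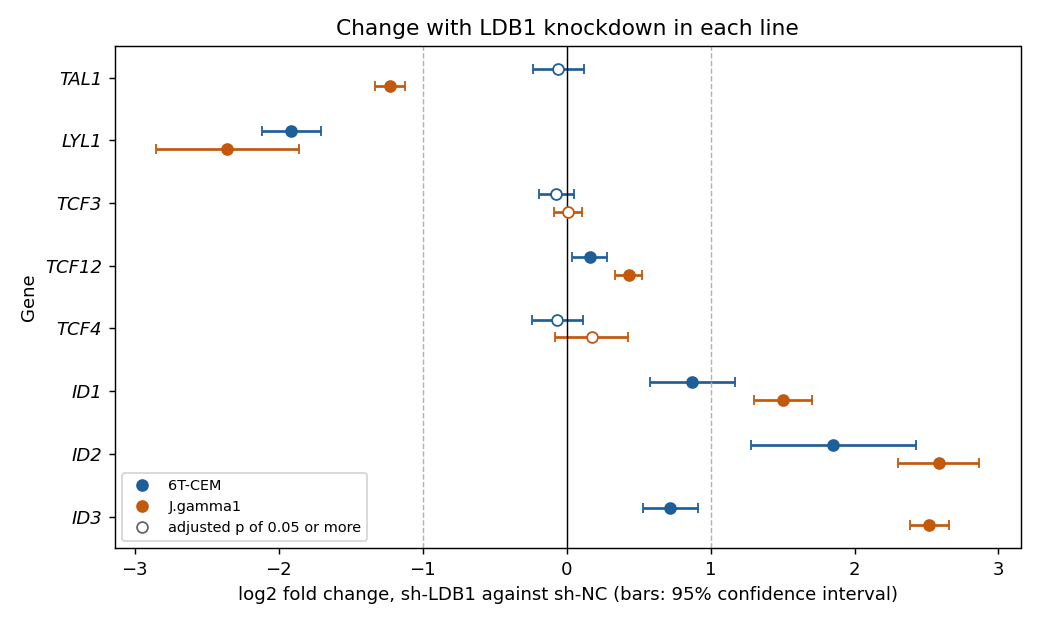
Log2 fold change of each gene, sh-LDB1 against sh-NC, in 6T-CEM and J.gamma1, with bars for the 95% confidence interval from edgeR; filled points passed the test at an adjusted p under 0.05, and dashed lines mark a log2 fold change of 1 in either direction. LYL1 lies at -1.91 and -2.35, TAL1 at -0.06 and -1.22, and ID3 at 0.72 and 2.52.

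Read against all genes tested, 5 of the 8 genes passed the test in 6T-CEM, where 31.3% of 16059 genes did, and 6 of the 8 passed it in J.gamma1, where 51.5% of 17215 genes did. Of the 5 in 6T-CEM, 4 rose and 1 fell, beside 15.1% of all genes that rose and 16.2% that fell. Of the 6 in J.gamma1, 4 rose and 2 fell, beside 25.0% of all genes that rose and 26.5% that fell. With a log2 fold change beyond 1 as well, the number was 2 of the 8 in 6T-CEM (LYL1 and ID2) against 5.13% of all genes, and 5 of the 8 in J.gamma1 (TAL1, LYL1, ID1, ID2 and ID3) against 13.9%. The response differed between the lines for 4 of the 8 genes, where 24.4% of 18552 genes did. Passing the test was thus common in these libraries. The median log2 fold change of the 8 genes was 0.05 in the 6T-CEM comparison, beside 0.0027 over all genes tested, and 0.30 in the J.gamma1 comparison, beside -0.00025.

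Levels of different genes were set side by side only per length, as TPM over the merged exons of each gene. In 6T-CEM sh-NC the order was TCF3 (143.2 TPM), TCF12 (70.0), ID3 (68.2), LYL1 (49.4), TAL1 (28.1), ID1 (26.3), TCF4 (4.83) and ID2 (2.68). TCF12 and ID3 did not differ beyond their spread in that group. In 6T-CEM sh-LDB1 ID3 had passed TCF12, with 115.4 against 80.5 TPM, and LYL1 had dropped below TAL1, with 13.5 against 27.9 TPM. J.gamma1 sh-NC was led by TAL1 (210.6 TPM), followed by TCF3 (156.9), TCF12 (106.0), ID3 (60.4), ID1 (39.2), LYL1 (10.04), ID2 (7.47) and TCF4 (2.06). In J.gamma1 sh-LDB1 ID3 led with 348.7 TPM, followed by TCF3 (159.4), TCF12 (144.0), ID1 (112.1), TAL1 (90.9), ID2 (45.1), TCF4 (2.33) and LYL1 (1.96). With the longest transcript as length, TCF12 (163.7 TPM) stood above TCF3 (157.8 TPM) in J.gamma1 sh-LDB1, so their order there depends on the length chosen.

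Summed over the family, ID transcripts increased 1.8-fold in 6T-CEM and 4.73-fold in J.gamma1, and E protein transcripts 1.03-fold and 1.15-fold. The 3 ID genes together had 104.0 and 90.3 TPM in 6T-CEM sh-NC against 177.4 and 172.5 in sh-LDB1, and 109.4 and 104.6 TPM in J.gamma1 sh-NC against 506.4 and 505.5 in sh-LDB1. The 3 E protein genes together had 219.5 and 216.5 TPM against 223.5 and 227.5 in 6T-CEM, and 268.4 and 261.4 TPM against 313.7 and 297.9 in J.gamma1. The ID sum was therefore 0.45 of the E protein sum in 6T-CEM sh-NC and 0.78 in 6T-CEM sh-LDB1, and 0.40 in J.gamma1 sh-NC and 1.66 in J.gamma1 sh-LDB1. Control cells of the lines had similar ratios, and the groups of a line did not overlap. TAL1 and LYL1 together fell to 53.4% of control in 6T-CEM and to 42.1% in J.gamma1, as LYL1 alone dropped in the former and TAL1 made up most of the sum in the latter. With the longest transcript as length, their sum went from 96.2 to 43.3 TPM in 6T-CEM and from 192.3 to 79.2 TPM in J.gamma1. The percentage in 6T-CEM thus depends on the length chosen. These sums are descriptions of transcript levels, without a test, and say nothing of protein levels.

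Within the E proteins, TCF12 took a larger share after the knockdown. Its share of the E protein sum was 32.1% in 6T-CEM sh-NC and 35.7% in 6T-CEM sh-LDB1, and 40.0% in J.gamma1 sh-NC and 47.1% in J.gamma1 sh-LDB1. TCF4 held 2.21% and 2.11% in 6T-CEM and 0.78% and 0.76% in J.gamma1. Its merged exons add up to 29166 bases while its longest transcript has 8343, so its level per length depends on the length chosen. With the longest transcript, the share of TCF4 was 5.31% in 6T-CEM sh-NC and 1.88% in J.gamma1 sh-NC, and the ratio of the ID sum to the E protein sum was 0.43, 0.73, 0.37 and 1.60 in the same order of groups.

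**Figure D3:**
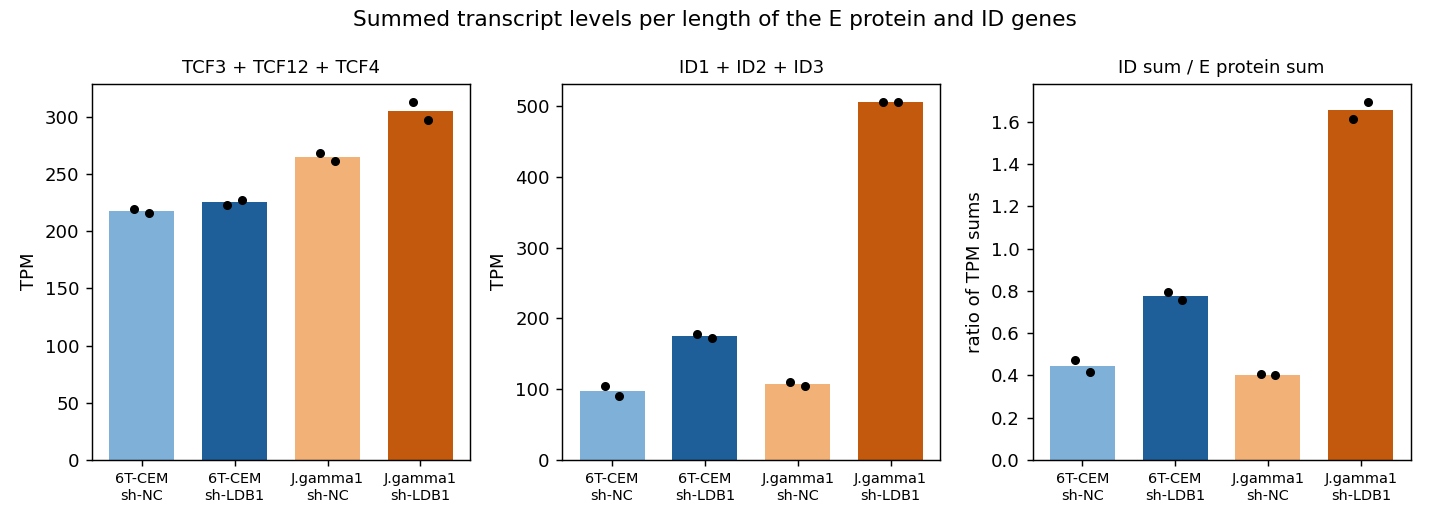
Summed TPM of the 3 E protein genes, summed TPM of the 3 ID genes, and the ratio of the ID sum to the E protein sum, in each group; bars show the mean of 2 libraries and points the libraries, and each axis starts at 0. The E protein sum lies between 216.5 and 313.7 TPM in all libraries, and the ratio goes from 0.40 to 1.66 in J.gamma1 and from 0.45 to 0.78 in 6T-CEM.

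Other genes of the pathway were read from lists chosen by what the genes are known to do. The lists were drawn up with earlier results of these data known, so a common direction within a list is not independent evidence. Counts for each list stand beside the 31.3% and 51.5% of all genes called in 6T-CEM and J.gamma1. Partners of the LDB1-TAL1 complex mostly fell. Of 15 genes listed, LDB1 included, 12 were tested in each line: 7 fell and 1 rose in 6T-CEM, and 8 fell and 3 rose in J.gamma1. LDB1 is the target of the shRNA, so its own fall, counted here in both lines, was set by the design. CBFA2T3, a corepressor known as ETO2, fell by 0.87 ± 0.09 log2 units in 6T-CEM and by 1.01 ± 0.05 in J.gamma1, and GATA2 fell by 0.66 ± 0.17 and 1.24 ± 0.16. LMO2, the bridge between the bHLH dimer and LDB1, was at 12.5 and 11.7 CPM in 6T-CEM sh-NC and fell there by 0.70 ± 0.16, and it was at most 0.16 CPM in J.gamma1, too low to test. RUNX1, a frequent partner of TAL1 at enhancers, fell by 0.33 ± 0.05 in 6T-CEM and by 0.97 ± 0.05 in J.gamma1. SSBP4, which belongs to a family that stabilises LDB1, rose by 0.38 ± 0.06 and by 1.00 ± 0.06. CBFA2T3, GATA2 and RUNX1 belong to the same set as LYL1 in the study, so their fall is not independent evidence either. The list medians, with LDB1 included, were -0.38 and -0.58 log2 units, beside medians near 0 over all genes.

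The list of coactivators and corepressors of TAL1 and E proteins changed less. Of 9 genes tested, 4 rose and 1 fell in 6T-CEM, and 4 rose and 4 fell in J.gamma1. CREBBP, an acetyltransferase that E proteins recruit, rose by 0.44 ± 0.06 log2 units in 6T-CEM and by 0.35 ± 0.06 in J.gamma1, and KDM1A, a histone demethylase, fell by 0.44 ± 0.05 and 0.32 ± 0.04. RCOR1 rose by 0.37 ± 0.06 and 0.24 ± 0.05, and HDAC1 by 0.25 ± 0.06 and 0.46 ± 0.05. EP300 rose by 0.35 ± 0.08 in 6T-CEM and had a change of 0.12 ± 0.08 in J.gamma1, and HDAC2 rose by 0.27 ± 0.05 in J.gamma1 and had -0.10 ± 0.05 in 6T-CEM. No gene of the list changed by more than 0.46 log2 units in either line. The list medians were 0.17 and 0.12.

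Genes known to be activated by TAL1 in T-ALL fell in both lines, including 6T-CEM. Of 9 genes tested, 7 fell and 0 rose in 6T-CEM, and 9 fell in J.gamma1, with list medians of -0.64 and -0.97 log2 units. ALDH1A2, a retinaldehyde dehydrogenase transcribed from within its gene in TAL1-positive T-ALL, went from 324.6 and 336.0 CPM to 87.8 and 89.6 in 6T-CEM and from 462.1 and 488.9 CPM to 9.08 and 9.27 in J.gamma1. MYB fell by 0.94 ± 0.05 log2 units in 6T-CEM and by 2.63 ± 0.05 in J.gamma1, and ARID5B by 0.70 ± 0.10 and 1.10 ± 0.06. ALDH1A2, MYB and ARID5B all fell further in J.gamma1 by the test of the difference. GATA3 and RUNX1 stand in this list and in that of the complex partners, so the lists are not independent, and MYB is a gene on which the study itself reports from these libraries.

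Target genes of E proteins in lymphoid precursors split into genes that rose and genes that fell. Of 12 genes tested in 6T-CEM, 7 rose and 5 fell, and of 11 tested in J.gamma1, 6 rose and 4 fell. RAG1, which encodes a subunit of the recombinase, went from 96.0 and 103.5 CPM to 306.8 and 312.6 in 6T-CEM and from 37.7 and 37.6 CPM to 356.7 and 345.0 in J.gamma1. CD4, a coreceptor, rose by 1.32 ± 0.08 log2 units in 6T-CEM and by 2.19 ± 0.13 in J.gamma1, and PTCRA, the alpha chain of the pre-T-cell receptor, rose by 2.12 ± 0.38 and 1.99 ± 0.22 from at most 2.51 CPM in control cells. IGLL1, a part of the surrogate light chain, moved the other way, from 334.2 and 308.5 CPM to 46.4 and 50.8 in 6T-CEM and from 572.7 and 616.9 CPM to 12.8 and 10.9 in J.gamma1. The list medians of 0.64 and 0.73 log2 units hide this split.

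Genes that control ID transcription or the stability of ID proteins showed no common direction in 6T-CEM, and in J.gamma1 more of them fell than rose. Of 13 tested in 6T-CEM, 4 rose and 3 fell, and of 14 tested in J.gamma1, 2 rose, 7 fell and 5 did not pass the test. In J.gamma1 this is 64.3% of the list called, beside 51.5% of all genes, a share near the background. In 6T-CEM it is 53.85%, beside 31.3% of all genes. SMAD5, which carries BMP signals to the ID promoters, fell by 0.81 ± 0.08 log2 units in 6T-CEM and by 0.82 ± 0.07 in J.gamma1, and SMAD6, which restrains that signal, fell by 0.82 ± 0.12 in J.gamma1 and had -0.87 ± 0.48 in 6T-CEM. Among BMP receptors, ACVR1 rose by 0.63 ± 0.19 in 6T-CEM and by 0.50 ± 0.13 in J.gamma1, and BMPR2 rose by 0.64 ± 0.17 in 6T-CEM and had 0.12 ± 0.10 in J.gamma1. EGR1, an activator of ID3 downstream of the T-cell receptor, fell by 1.28 ± 0.22 in J.gamma1 from 5.04 and 5.01 CPM and was at most 0.69 CPM in 6T-CEM. CDC20, an activator of the ubiquitin ligase that marks ID proteins for decay, rose by 0.68 ± 0.06 and 0.63 ± 0.05. The list medians were 0.05 and -0.50.

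**Figure D4:**
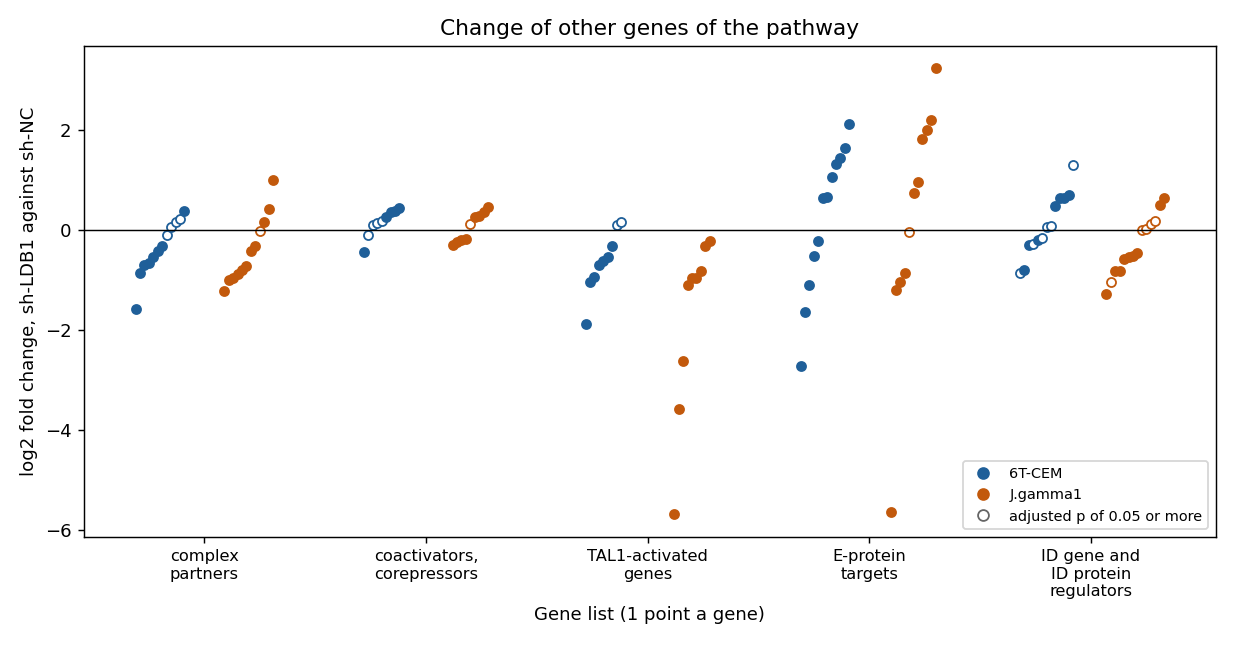
Log2 fold change, sh-LDB1 against sh-NC, of each tested gene of 5 lists in 6T-CEM and J.gamma1, sorted by value within a list and line; filled points passed the test at an adjusted p under 0.05. The points of the TAL1-activated genes that passed the test all lie below 0, down to -5.69 for ALDH1A2 in J.gamma1, and those of the E-protein targets lie on both sides of 0.

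Neighbouring genes were examined for the 6 genes that passed the test in at least 1 line, as the 2 nearest genes on each side tested in both lines. STIL lies 17914 bases upstream of TAL1 in the reference genome, and its promoter drives TAL1 in CCRF-CEM. STIL fell by 0.45 ± 0.05 log2 units in J.gamma1 (adjusted p = 2.40e-05, edgeR) and had a change of 0.13 ± 0.09 in 6T-CEM (adjusted p = 0.26, edgeR). TAL1 and STIL thus each fell in J.gamma1 and did not pass the test in 6T-CEM, with a smaller change for STIL. The deletion in CCRF-CEM alters the interval between them, and these counts do not tell the alleles of 6T-CEM apart. The other neighbours of TAL1 were CMPK1, which rose by 0.42 ± 0.05 in J.gamma1, EFCAB14, which rose by 0.60 ± 0.07 in 6T-CEM and 0.14 ± 0.05 in J.gamma1, and ATPAF1, which passed in neither line.

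Next to LYL1 no tested neighbour fell with it. TRMT1, a tRNA methyltransferase gene on the same strand whose downstream end lies 1741 bases from the upstream end of LYL1, rose by 1.45 ± 0.09 log2 units in J.gamma1 (adjusted p = 4.93e-07, edgeR) and had a change of 0.01 ± 0.08 in 6T-CEM (adjusted p = 0.94, edgeR). NACC1 rose by 0.26 ± 0.06 and 0.55 ± 0.05. NFIX, 237 bases beyond the downstream end of LYL1 on the other strand, rose by 0.33 ± 0.09 in J.gamma1 and averaged 22.5 counts in 6T-CEM, where its change of -1.04 ± 0.48 did not pass the test. GADD45GIP1 passed in neither line.

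Of the 12 neighbours of the ID genes, none that passed the test changed as much as the ID gene beside it in the same line. HM13 rose by 0.21 ± 0.06 and 0.40 ± 0.06 log2 units next to ID1, TPX2 rose by 0.45 ± 0.06 in 6T-CEM, BCL2L1 fell by 0.57 ± 0.05 in J.gamma1, and MCTS2 passed in neither line. Around ID2, RNF144A fell by 0.55 ± 0.07 and ITGB1BP1 rose by 0.43 ± 0.07 in J.gamma1, and LINC02973 and KIDINS220 passed in neither line. Beside ID3, E2F2 fell by 0.26 ± 0.05, RPL11 rose by 0.14 ± 0.05 and ZNF436-AS1 rose by 0.74 ± 0.28 in J.gamma1, and ELOA-AS1 passed in neither line. Next to TCF12, ZNF280D rose by 0.27 ± 0.08 in 6T-CEM and by 0.75 ± 0.10 in J.gamma1, and MNS1, LINC00926 and POLR2M passed in neither line.

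**Figure D5:**
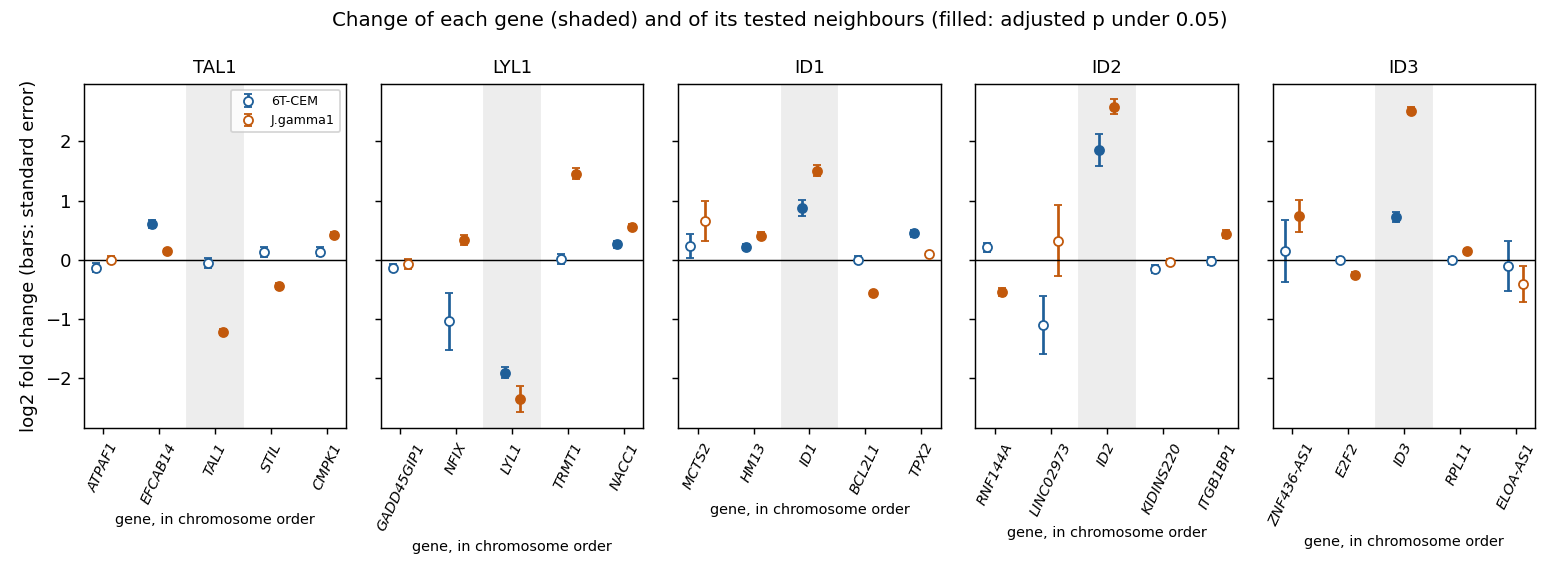
Log2 fold change, sh-LDB1 against sh-NC, of TAL1, LYL1, ID1, ID2 and ID3 (shaded) and of the 2 nearest tested genes on each side, in chromosome order and not to scale in distance; bars show the standard error and filled points passed the test at an adjusted p under 0.05. LYL1 at -1.91 and -2.35 has neighbours from -1.04 to 1.45, and ID3 at 0.72 and 2.52 has neighbours from -0.41 to 0.74.

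Patterns over the 8 libraries were compared by Pearson's r of log2 CPM with 11049 genes that had a mean of at least 50 counts in both lines. SCN3A and SALL2 were most like TAL1 (r = 0.999 and 0.998), SAMSN1 and TMEM87A most like LYL1 (0.999 and 0.997), HELB and DNAJC16 most like TCF12 (0.996 and 0.995), and GALNT7 and PELP1 most like TCF4 (0.999 and 0.998). For ID1 the nearest were ARHGEF1 and PGS1 (0.995 each), for ID2 BCL2L12 and RHBDD3 (0.995 and 0.992), and for ID3 SEPTIN1 and PAN2 (0.997 and 0.994). TCF3, whose level hardly varied, was matched best by WWOX and RPL7P1, with an r of 0.935 and 0.895. These r are descriptions. The 8 libraries form 4 groups that differ by line and shRNA, and 4 to 62 genes exceeded an r of 0.99 for each of the other 7 genes.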

How the data were processed

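RNA of 8 libraries was sequenced, 2 from each of 4 groups. Per the labels, the authors used HISAT2 2.2.0 with the hg38 genome, then StringTie, and deposited whole-number counts per gene, 1 table a line, without normalization. The annotation release, strand setting and treatment of multiply mapping reads are not given in the sources used here, so genes that share exons with others are uncertain. Of the identifiers, 56105 were matched to a GENCODE release 44 symbol and 8147 were not. The latter held 2.11% to 2.27% of a library's counts.

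Each line was fitted in R 4.3.3 with edgeR 4.0.16 (quasi-likelihood test with robust fitting, TMM, filterByExpr, Benjamini-Hochberg adjustment over all genes tested). "Rose" and "fell" mean an adjusted p under 0.05. The difference between lines and the control cells were contrasts of 1 fit to 8 libraries. The standard error is the log2 fold change divided by the root of its F. CPM used the TMM factors of all 8 libraries, and TPM the merged exon length. Biological coefficients of variation were 9.68% (6T-CEM) and 9.16% (J.gamma1). Replicates differed by more than sampling noise, so none was counted as a duplicate. Correlations used log2(CPM + 0.5). The steps were tested on simulated counts.

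The 8 genes, the lists and the tests were chosen with earlier results of these data known. Named list genes are, per list and line, the 4 or fewer with the largest change among those that passed with a mean of at least 50 counts, and 1 gene that this rule names is not reported here. Alternatives were other scaling factors, no filter, DESeq2 1.42.0, the replicate number as a block, leaving out each library, 1 fit to all 8 libraries, a threshold on the fold change and the longest transcript as length.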

Additional observations from a re-analysis of the deposited data

Results flagged for a closer look

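The change with LDB1 knockdown differed between the lines, by the test of the difference in edgeR's fit to all 8 libraries, for 4 of the 8 genes and for LDB1. It differed for 24.4% of all 18552 genes tested. As the change in J.gamma1 minus that in 6T-CEM on the log2 scale, the difference was -1.17 for TAL1, 0.27 for TCF12, 0.63 for ID1, 1.80 for ID3 and 0.70 for LDB1.

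The same test passed for 13 of 27 other genes of the lists, beside the 24.4% of all genes. Most of the 27 were named for a large change within a line. Genes picked in that way may pass this test more often, so the count is not a result about the pathway. Among genes that TAL1 activates the difference was -3.80 for ALDH1A2, -1.69 for MYB and -0.40 for ARID5B. Among complex partners it was 0.62 for SSBP4 and -0.64 for RUNX1. HDAC1 had 0.21 and HDAC2 had 0.37 among corepressors. E-protein targets gave -2.93 for IGLL1, 1.59 for RAG1 and 0.87 for CD4. CD3E, an E-protein target and T-lineage marker that is not named above, gave 0.31. Markers named above, such as CD3D and LCK, were not among the 27. BMPR2 had -0.52 and EGR1 had -1.34 among regulators of ID genes. For all of these, the line, its count table and the degree of LDB1 reduction differ together and cannot be told apart.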

How the results depend on the processing

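Of 48 recomputed counts of called genes, 47 stayed within 1.5 times the value reported. The exception was 6T-CEM, where 2 of the 8 genes in place of 5 passed once a log2 fold change beyond 1 was also required. Since no count can exceed 8, those of J.gamma1 and of the control cells could leave this range only downward. Leaving out 1 library gave 4 genes in 6T-CEM each time, 6 in J.gamma1, 4 to 5 for the difference between lines and 7 for the control cells. With 1 library left in a group, that library is assumed to vary like the others. Without replicate 1 of 6T-CEM sh-LDB1 the difference between lines of ID2 passed the test, at 1.02 log2 units (adjusted p = 0.030, edgeR).

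The rise of TCF12 in 6T-CEM was lost without the filter on low counts (0.15 log2 units, adjusted p = 0.12, edgeR), and leaving out 1 library gave 0.11 to 0.21. Signs turned only for changes that never passed the test. Leaving out 1 library gave -0.13 to 0.03 for TAL1 in 6T-CEM, the highest without sh-NC replicate 2, and -0.014 to 0.03 for TCF3 in J.gamma1, the lowest without sh-NC replicate 1, and TCF3 in the control cells was -0.0017 with upper-quartile factors. The cause of these shifts was not tested.

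The replicate block, which pairs libraries by number, left the counts at 5 in 6T-CEM, 6 in J.gamma1, 4 for the difference and 7 for the control cells. Deviations of same-numbered libraries correlated across genes at -0.03 (6T-CEM) and -0.02 (J.gamma1), with 2 pairs a line, so the numbers were taken as names only. Another scaling moved the median of all genes by at most 0.05 log2 units. With 2 libraries a group, precision rests on 4 libraries a line, and ID2 in 6T-CEM and LYL1 in J.gamma1 have the fewest counts.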

Other observations

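Other ID and class II bHLH genes were nearly silent. Of 33 genes in this list, ID4 and TAL2 among them, 2 passed the filter on low counts in 6T-CEM and 5 in J.gamma1. In 6T-CEM 0 of the 2 passed edgeR's test. In J.gamma1 TWIST1, a mesodermal bHLH factor, fell by 1.04 ± 0.29 log2 units from 3.84 and 3.46 CPM, and MESP1, another mesodermal factor, fell by 1.38 ± 0.37 from 2.93 and 1.81 CPM. NHLH1, named after its values were seen, rose by 0.96 ± 0.33 from 0.91 and 0.98 CPM. TWIST1 and MESP1 were at 0 counts in all 4 libraries of 6T-CEM.

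LMO1, a relative of LMO2 that can take its place in the complex, was at 0 counts in all 6T-CEM libraries and at 7.59 and 10.1 CPM in J.gamma1 sh-NC against 4.82 and 5.20 in sh-LDB1. Its values were chosen after they were seen, beside those of LMO2. The antisense transcript ID2-AS1, which shares 145 exon bases with ID2, had at most 12 counts in any library. Both non-coding genes that share exon bases with TCF4 had 0 counts.

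HBB and ALAS2 were at 0 counts in every library. EPOR carried the summed erythroid level, which was 11.9 to 13.6 CPM in J.gamma1 sh-NC and 4.72 to 6.72 CPM in J.gamma1 sh-LDB1. EPOR fell there by 1.09 ± 0.18 log2 units, KLF1 fell from at most 0.98 CPM, and the summed myeloid level was at most 2.78 CPM in any library. MPO, also named after its values were seen, rose by 1.90 ± 0.49 log2 units in 6T-CEM from 0.35 and 0.30 CPM and had 0 counts in J.gamma1.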
